A study of Rattus norvegicus with 17 samples.

Results

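Immediate early genes are genes that cells transcribe within minutes of a stimulus without first making new protein. This account follows 8 transcripts in rat liver: the immediate early genes Egr1, Junb, Jun, Fos, Ier2, Ier3 and Myc, and the chemokine gene Cxcl1. They were chosen with earlier results of these data known, were found by gene symbol in the array platform's annotation and are 8 of the 14217 genes measured. A gene with several probe sets (groups of oligonucleotide probes on the array) was represented by its brightest probe set, taken over the 17 arrays together. The 8 genes had 11 probe sets, and 6 of them had 1 probe set each.

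The livers came from 17 male Harlan Sprague-Dawley rats, 1 array per rat. Isopropylated phenol phosphate (IPP), a mixture of aryl phosphate esters used as a flame retardant, was given in corn oil by oral gavage on 4 consecutive days. There were 5 groups, with 5 rats given corn oil (vehicle) and 3 rats each at 76.5, 153, 305.5 and 611 mg/kg per day. In molar terms the lowest of these was 0.169 mmol/kg and the highest 1.35 mmol/kg, with 0.338 and then 0.675 mmol/kg between them. The rats were killed on day 5, pieces of the left liver lobe were frozen, and total RNA was hybridised to Affymetrix arrays. No age is given in the sample labels. All values are log2 signals from robust multi-array averaging (RMA), so a difference of 1 is a doubling, and signals of different genes cannot be set against each other. In a piece of whole liver, fewer cells of a type and less RNA per cell cannot be told apart.

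Immediate early genes respond to growth factors, cytokines and stress through the ERK, JNK and p38 kinases, which act on serum response factor, its ternary complex partners and CREB at the promoters. Their mRNAs are short-lived, and their protein products, many of them transcription factors, switch on later genes. In liver they are known for their burst after partial hepatectomy and injury. Cxcl1 is driven largely by NF-kB and encodes a ligand of the receptor Cxcr2 that draws neutrophils into tissue.

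The 250 bases before the annotated transcription start are shown for the members with a matched promoter sequence, Egr1, Junb, Ier2 and Cxcl1. RefSeq promoter sequence on build GRCr8 matched these 4 of the 8 genes, and Fos, Jun, Myc and Ier3 were not searched. The 4 genes shown also carry the dose results below, so their motifs cannot be set against those of uncalled members. The windows lie at chr18:26736828-26737077 (plus strand) for Egr1, chr19:40080876-40081125 (plus) for Junb, chr19:40399123-40399372 (plus) for Ier2 and chr14:17479322-17479571 (minus) for Cxcl1. Each is printed 5′ to 3′ toward the start site, with motif matches in capitals.
Egr1: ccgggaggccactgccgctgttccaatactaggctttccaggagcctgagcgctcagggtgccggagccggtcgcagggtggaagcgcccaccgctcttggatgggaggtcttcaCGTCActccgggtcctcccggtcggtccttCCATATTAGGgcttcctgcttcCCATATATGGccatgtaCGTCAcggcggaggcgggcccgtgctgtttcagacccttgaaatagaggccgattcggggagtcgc
Junb: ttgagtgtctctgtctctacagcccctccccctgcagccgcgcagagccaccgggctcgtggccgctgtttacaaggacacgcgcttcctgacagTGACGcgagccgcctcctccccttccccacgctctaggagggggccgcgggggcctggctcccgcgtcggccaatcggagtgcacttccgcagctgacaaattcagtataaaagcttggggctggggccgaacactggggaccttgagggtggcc
Ier2: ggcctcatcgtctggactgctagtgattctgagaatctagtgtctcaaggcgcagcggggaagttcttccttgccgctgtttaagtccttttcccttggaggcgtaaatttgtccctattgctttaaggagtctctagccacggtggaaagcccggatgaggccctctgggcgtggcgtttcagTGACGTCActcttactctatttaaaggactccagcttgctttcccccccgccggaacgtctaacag
Cxcl1: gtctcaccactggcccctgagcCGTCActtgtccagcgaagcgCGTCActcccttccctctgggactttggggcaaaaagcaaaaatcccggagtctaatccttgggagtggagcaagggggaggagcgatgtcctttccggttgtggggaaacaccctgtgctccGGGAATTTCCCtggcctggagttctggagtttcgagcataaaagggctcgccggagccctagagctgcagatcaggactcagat
The search covered both strands for the CArG box (the serum response factor motif) and the NF-kB motif by name, the cyclic AMP response element (CRE, TGACGTCA), its core TGACG, the AP-1 site TGANTCA and the EGR site GCGNGGGCG. The CRE contains the core on each strand, so the matches overlap. Egr1 held 2 CArG boxes, CCATATTAGG starting 105 bases and CCATATATGG starting 83 bases before the start site, and 2 CRE cores on the other strand (printed as CGTCA). Junb held 1 CRE core, and Ier2 held a full CRE starting 66 bases before the start. Cxcl1 held 2 CRE cores on the other strand and an NF-kB motif, GGGAATTTCC, starting 84 bases before the start and overlapped by a match on the other strand. Among all 33469 promoter windows of this length, 1.5% held a CArG box, 1.59% a CRE, 18.2% a CRE core, 6.33% the NF-kB motif, 6.34% the AP-1 site and 4.29% the EGR site. The AP-1 and EGR letters were not in these 4 windows. These matches describe the sequence and were not tested for binding.

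All 17 arrays had medians between 6.29 and 6.40, and any 2 arrays correlated at 0.974 to 0.995. For GAPDH the 3′ control probe set exceeded the 5′ one, a sign of RNA quality, by 2.89 on the array of 611 mg/kg rat 2 and by 0.93 to 1.56 on the other 16. This array and those of 76.5 mg/kg rats 2 and 3 correlated least with the rest, with medians of 0.984, 0.987 and 0.986. Hepatocyte markers averaged 13.5 to 13.9 in every rat, and the median marker was brighter than 99.7% of all genes.

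Egr1, Junb, Ier2 and Cxcl1 were lower in treated than in vehicle livers, by 4.92-fold, 1.91-fold, 1.73-fold and 9.69-fold in the mean of the 4 doses. Myc, Jun, Ier3 and Fos did not pass the test at any dose. In limma's linear model over all 17 arrays (adjusted p under 0.05 by Benjamini-Hochberg over all 14217 genes), 4 of the 8 genes were called lower and 0 higher in the mean of the 4 doses, where 1.83% of all genes were called lower and 2.18% higher. Their median difference was -0.69 on the log2 scale, against 0.00 over all genes. Because the 8 genes were chosen with earlier results of these data known, the shares of all genes give a scale and do not test the set. By dose, 0 of 8 were called lower at 76.5 mg/kg (background 0.127% of genes), 2 at 153 mg/kg (0.338%), 4 at 305.5 mg/kg (1.47%) and 4 at 611 mg/kg (2.42%). None of the 8 was called higher by limma at any dose, against 0.141%, 0.408%, 0.753% and 5.04% of all genes from the lowest to the highest dose. In the lowest dose group 4 of the 8 had an unadjusted p under 0.05 in limma. Counts of genes by unadjusted p, here and below, are not calls, and the share of all genes under it was not worked out. All doses were set against the same 5 vehicle rats, so their differences are not independent of each other.

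**Figure D1:**
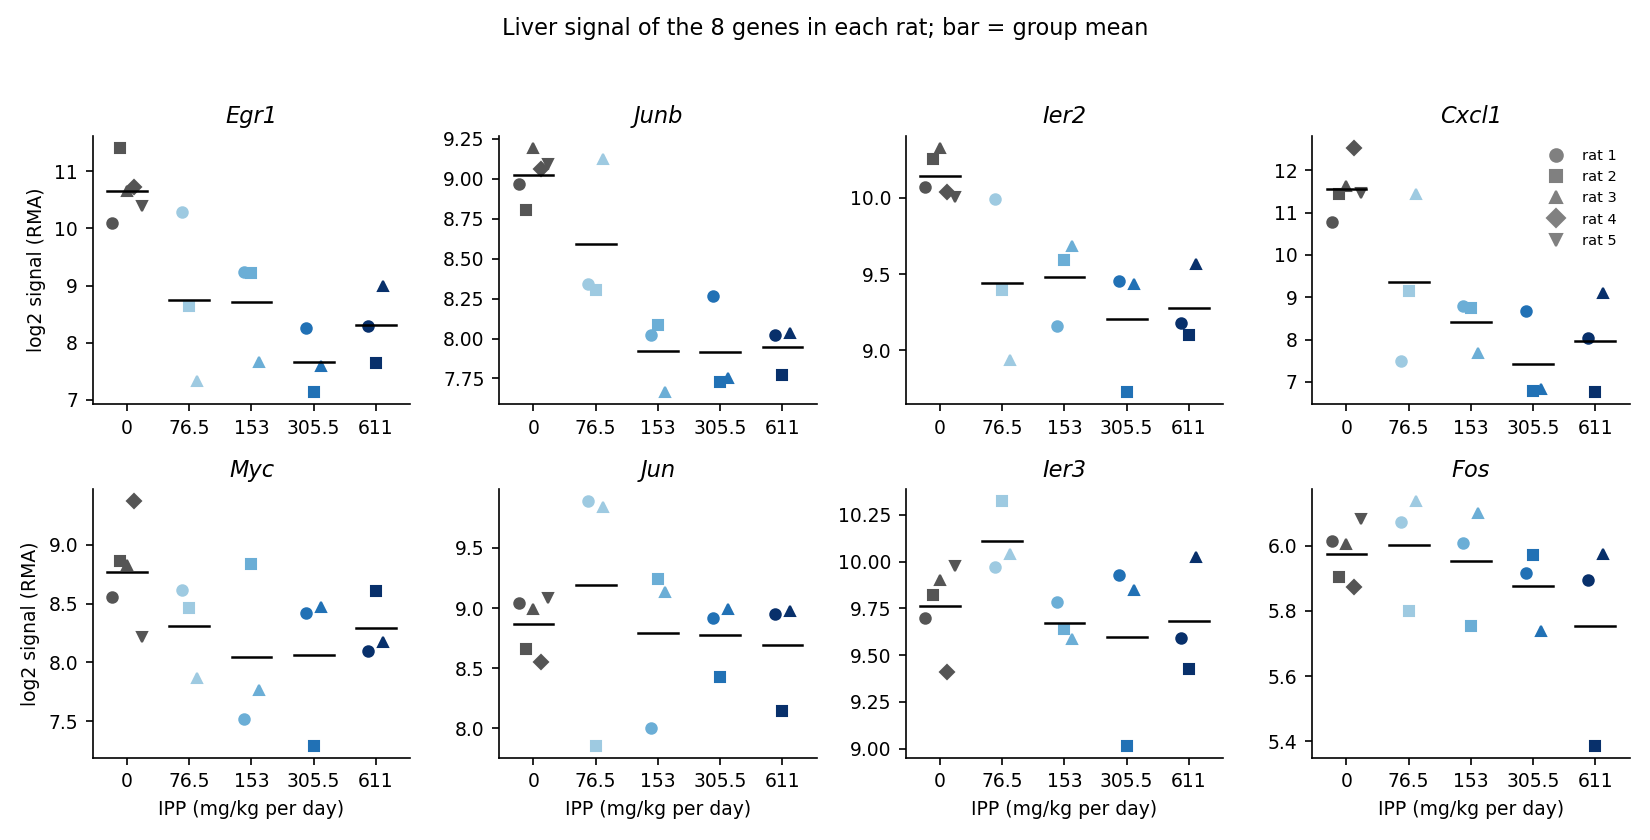
Log2 RMA signal (vertical axes) of each of the 8 genes in each rat against the daily IPP amount (0 is vehicle), with marker shape giving the rat number within its group and the bar the group mean, n = 5 for vehicle and n = 3 at each dose. In the upper row (Egr1, Junb, Ier2, Cxcl1) every rat at 153, 305.5 and 611 mg/kg lies below every vehicle rat, and in the lower row (Myc, Jun, Ier3, Fos) the groups overlap.

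Egr1 encodes a zinc finger transcription factor that binds GC-rich promoter elements after growth factor, stress and injury signals. Its signal in vehicle rats 1 to 5 was 10.10, 11.41, 10.65, 10.72 and 10.39. With treatment it was 10.28, 8.65 and 7.33 at 76.5 mg/kg and 9.23, 9.22 and 7.67 at 153 mg/kg. The rats at 305.5 mg/kg read 8.26, 7.14 and 7.59, and those at 611 mg/kg 8.29, 7.64 and 8.998. Of the 12 treated rats 11 lay below the lowest vehicle rat, and 76.5 mg/kg rat 1 lay within the vehicle range. The group means were 10.66 ± 0.49 (SD, n = 5), 8.75 ± 1.48, 8.71 ± 0.90, 7.66 ± 0.57 and 8.31 ± 0.68 (n = 3 each). Egr1 fell by 2.99 ± 0.52 (SE) on the log2 scale at 305.5 mg/kg, or 7.97-fold (limma, adjusted p = 0.00466), and by 2.35 ± 0.52 at 611 mg/kg, or 5.08-fold (adjusted p = 0.0115).

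At the lower doses the Egr1 differences were similar in size to that at 611 mg/kg but did not pass the test. They were -1.90 ± 0.52 at 76.5 mg/kg (adjusted p = 0.175, 95% interval -2.998 to -0.81) and -1.95 ± 0.52 at 153 mg/kg (adjusted p = 0.117, -3.04 to -0.86). In the mean of the 4 doses Egr1 fell by 2.30 ± 0.38 (adjusted p = 0.00182), and the two-sided exact permutation test over rats gave p = 0.000323, where 0.000162 is the smallest possible. Without 76.5 mg/kg rat 1 the difference at 76.5 mg/kg was -2.67 and called (limma, adjusted p = 0.0175), while without rat 3 of that dose it was -1.19 (adjusted p = 0.301) and with the arrays weighted by quality -0.59 (adjusted p = 0.399). The difference at 153 mg/kg was called without 76.5 mg/kg rat 1 (adjusted p = 0.0351) or rat 3 (adjusted p = 0.0281), and the call at 611 mg/kg was lost without rat 2 of that dose, at -2.01 (adjusted p = 0.0798).

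Junb, Jun and Fos encode subunits of the AP-1 transcription factor, a dimer of a JUN protein with a JUN or FOS protein. The signal of Junb in vehicle rats 1 to 5 was 8.97, 8.81, 9.19, 9.06 and 9.10. It was 8.34, 8.30 and 9.13 at 76.5 mg/kg and 8.02, 8.08 and 7.66 at 153 mg/kg. The remaining rats read 8.27, 7.73 and 7.75 at 305.5 mg/kg and 8.02, 7.77 and 8.04 at 611 mg/kg. Here too 11 of 12 treated rats lay below every vehicle rat, and the exception was 76.5 mg/kg rat 3. From 153 mg/kg on the group means of Junb stood level, at 7.92 ± 0.23, 7.92 ± 0.30 and 7.94 ± 0.15, against 9.03 ± 0.15 in vehicle and 8.59 ± 0.46 at 76.5 mg/kg. Junb fell by 1.10 ± 0.17 at 153 mg/kg, 1.11 ± 0.17 at 305.5 mg/kg and 1.08 ± 0.17 at 611 mg/kg (limma, adjusted p = 0.00516, 0.00243 and 0.00149), which is 2.15-fold, 2.16-fold and 2.12-fold.

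The Junb difference at 76.5 mg/kg was -0.43 ± 0.17 (limma, adjusted p = 0.381, 95% interval -0.80 to -0.07). It was called without 76.5 mg/kg rat 3, at -0.70 (adjusted p = 0.0452), and was -0.31 and -0.29 without rat 1 and rat 2 of that dose (adjusted p = 0.506 and 0.652). In the mean of the 4 doses Junb fell by 0.93 ± 0.13 (limma, adjusted p = 0.000383; exact permutation p = 0.000808). The calls of Junb at 153, 305.5 and 611 mg/kg were kept in all 30 alternative settings.

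Jun, the AP-1 subunit that JNK phosphorylates, showed no such drop. Its signal was 8.55 to 9.08 in the vehicle rats (median 8.99). The treated rats read 9.89, 7.86 and 9.84 at 76.5 mg/kg and 8.003, 9.24 and 9.14 at 153 mg/kg. They read 8.91, 8.42 and 8.99 at 305.5 mg/kg and 8.95, 8.14 and 8.98 at 611 mg/kg. Treated rats lay on both sides of the vehicle range, 4 above it and 4 below it, with 76.5 mg/kg rats 1 and 3 the highest and rat 2 of that dose the lowest. The mean of the 4 doses differed from vehicle by -0.00 ± 0.28 (limma, adjusted p = 0.996), and the 95% interval of -0.59 to 0.58 leaves room for a change of that size in either direction. Weighting the arrays by quality turned Jun at 76.5 mg/kg from 0.33 (adjusted p = 0.820) into a call at 0.89 (adjusted p = 0.0388).

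Fos, the partner of JUN proteins in AP-1, was dim on this array, at the 24.8th percentile of all genes. Its brighter probe set read 5.87 to 6.08 in vehicle, and the treated rats spanned 5.39 to 6.14. The groups overlapped at every dose. The mean of the 4 doses differed by -0.08 ± 0.09 (limma, adjusted p = 0.708, 95% interval -0.27 to 0.11).

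The 2 probe sets of Fos did not give the same answer. The dimmer of them, at the 6.06th percentile, read 4.68, 5.47, 4.80, 4.50 and 4.48 in vehicle. With treatment it read 4.06, 3.91 and 3.76 at 76.5 mg/kg and 4.26, 4.23 and 4.10 at 153 mg/kg. The upper doses gave 4.16, 3.91 and 3.69 at 305.5 mg/kg and 4.17, 4.23 and 5.12 at 611 mg/kg. All treated rats but 611 mg/kg rat 3 lay below every vehicle rat on it. Tested over all 20826 probe sets, it was lower by 0.65 ± 0.16 in the mean of the 4 doses (limma, adjusted p = 0.0328) and was not called at 76.5 mg/kg (-0.88, adjusted p = 0.143), 153 mg/kg (-0.59, adjusted p = 0.346), 305.5 mg/kg (-0.87, adjusted p = 0.0542) or 611 mg/kg (-0.28, adjusted p = 0.479). The call for Fos therefore differed between its probe sets, and both were dim. The other probe sets of Jun gave 0.34 ± 0.18 (adjusted p = 0.397) and 0.11 (adjusted p = 0.912) in the mean of the 4 doses, neither of them called.

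Ier2 encodes a small nuclear protein induced by growth factors. Its vehicle signals lay close together, at 10.07, 10.25, 10.33, 10.04 and 10.01. The rats at 76.5 mg/kg read 9.99, 9.40 and 8.94, and those at 153 mg/kg 9.16, 9.59 and 9.69. The signals were 9.45, 8.73 and 9.44 at 305.5 mg/kg and 9.18, 9.10 and 9.56 at 611 mg/kg. Ier2 was the member whose 12 treated rats all lay below all 5 vehicle rats, a pattern held by 0.542% of all genes, though 76.5 mg/kg rat 1 missed the vehicle range by little. Ier2 fell by 0.93 ± 0.21 at 305.5 mg/kg, or 1.91-fold (limma, adjusted p = 0.0235), and by 0.86 ± 0.21 at 611 mg/kg, or 1.81-fold (adjusted p = 0.0184).

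The Ier2 differences of -0.70 ± 0.21 at 76.5 mg/kg and -0.66 ± 0.21 at 153 mg/kg did not pass the limma test (adjusted p = 0.209 and 0.210). In the mean of the 4 doses Ier2 fell by 0.79 ± 0.15 (limma, adjusted p = 0.00597; exact permutation p = 0.000323). Single rats decided the calls by dose. The call at 305.5 mg/kg was lost without rat 2 of that dose (-0.70, adjusted p = 0.153), vehicle rat 2 (adjusted p = 0.0519) or vehicle rat 3 (adjusted p = 0.0608), at 611 mg/kg it was lost without rat 1 (adjusted p = 0.0538) or rat 2 (adjusted p = 0.102), and at 76.5 mg/kg it was gained without rat 1 (-0.97, adjusted p = 0.0331), all by limma. Without 76.5 mg/kg rat 3 the value at that dose was -0.45 (adjusted p = 0.352).

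Ier3, whose product affects cell survival and is induced through NF-kB and ERK, had signals of 9.41 to 9.98 in vehicle. The rats at 76.5 mg/kg read 9.97, 10.32 and 10.04. The 9 rats at the higher doses spanned 9.02 to 10.02. The group mean at 76.5 mg/kg was 10.11 ± 0.19 against 9.76 ± 0.22 in vehicle, a difference of 0.35 ± 0.19 that did not pass the test (limma, adjusted p = 0.535). In the mean of the 4 doses the difference was 0.00 ± 0.14 (adjusted p = 0.996, 95% interval -0.28 to 0.29). Ier3 and Jun had their highest group mean at 76.5 mg/kg, whereas Egr1, Junb, Ier2 and Cxcl1 had theirs in vehicle.

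Myc encodes a transcription factor that drives growth and ribosome production. Vehicle rats read 8.55, 8.86, 8.83, 9.37 and 8.22. The doses gave 8.61, 8.46 and 7.86 at 76.5 mg/kg, 7.52, 8.84 and 7.77 at 153 mg/kg, 8.42, 7.29 and 8.47 at 305.5 mg/kg and 8.10, 8.61 and 8.18 at 611 mg/kg. Of the 12 treated rats 6 lay below every vehicle rat, and the groups overlapped at each dose. The differences were -0.45, -0.72, -0.71 and -0.47 (SE 0.32 each) from the lowest to the highest dose, with adjusted p from 0.333 to 0.664 in limma. In the mean of the 4 doses the difference was -0.59 ± 0.23 (95% interval -1.07 to -0.10), which did not pass the correction over all genes (limma, adjusted p = 0.173). The exact permutation test of Myc alone gave an unadjusted p = 0.0326.

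Cxcl1, the neutrophil chemoattractant, had the largest difference of the 8 genes at each dose. In vehicle rats 1 to 5 it read 10.78, 11.43, 11.63, 12.53 and 11.46. The treated rats read 7.49, 9.14 and 11.44 at 76.5 mg/kg and 8.79, 8.74 and 7.68 at 153 mg/kg. The upper doses gave 8.68, 6.77 and 6.84 at 305.5 mg/kg and 8.04, 6.76 and 9.09 at 611 mg/kg. The 3 rats at 76.5 mg/kg spanned 3.95 log2 units, a 15.4-fold range, with rat 3 inside the vehicle range and the other 11 treated rats below it. Group means were 11.57 ± 0.63 in vehicle, then 9.36 ± 1.98, 8.40 ± 0.63, 7.43 ± 1.08 and 7.97 ± 1.17 with dose. Cxcl1 fell by 3.16 ± 0.69 at 153 mg/kg, or 8.95-fold (limma, adjusted p = 0.0420), while at 305.5 mg/kg it fell by 4.13 ± 0.69, or 17.6-fold (adjusted p = 0.00388), and at 611 mg/kg it fell by 3.60 ± 0.69, or 12.1-fold (adjusted p = 0.00551).

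At 76.5 mg/kg the Cxcl1 difference was -2.21 ± 0.69 (limma, adjusted p = 0.235, 95% interval -3.67 to -0.75), and in the mean of the 4 doses Cxcl1 fell by 3.28 ± 0.51 (adjusted p = 0.00105; exact permutation p = 0.000485). Without 76.5 mg/kg rat 3 the value at that dose was -3.25 and called (limma, adjusted p = 0.0213), and without rat 1 it was -1.28 (adjusted p = 0.404). The call at 153 mg/kg was lost in 17 of 30 alternatives, with adjusted p of 0.111, 0.164 and 0.194 without rats 1, 2 and 3 of that dose, 0.0572 to 0.104 without each vehicle rat in turn, and 0.222 with the replicate number as a block. It was also lost without 76.5 mg/kg rat 2, 305.5 mg/kg rat 2 or 3, or 611 mg/kg rat 1. The calls of Cxcl1 at 305.5 and 611 mg/kg and that of Egr1 at 305.5 mg/kg were kept in all 30 alternatives.

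**Figure D2:**
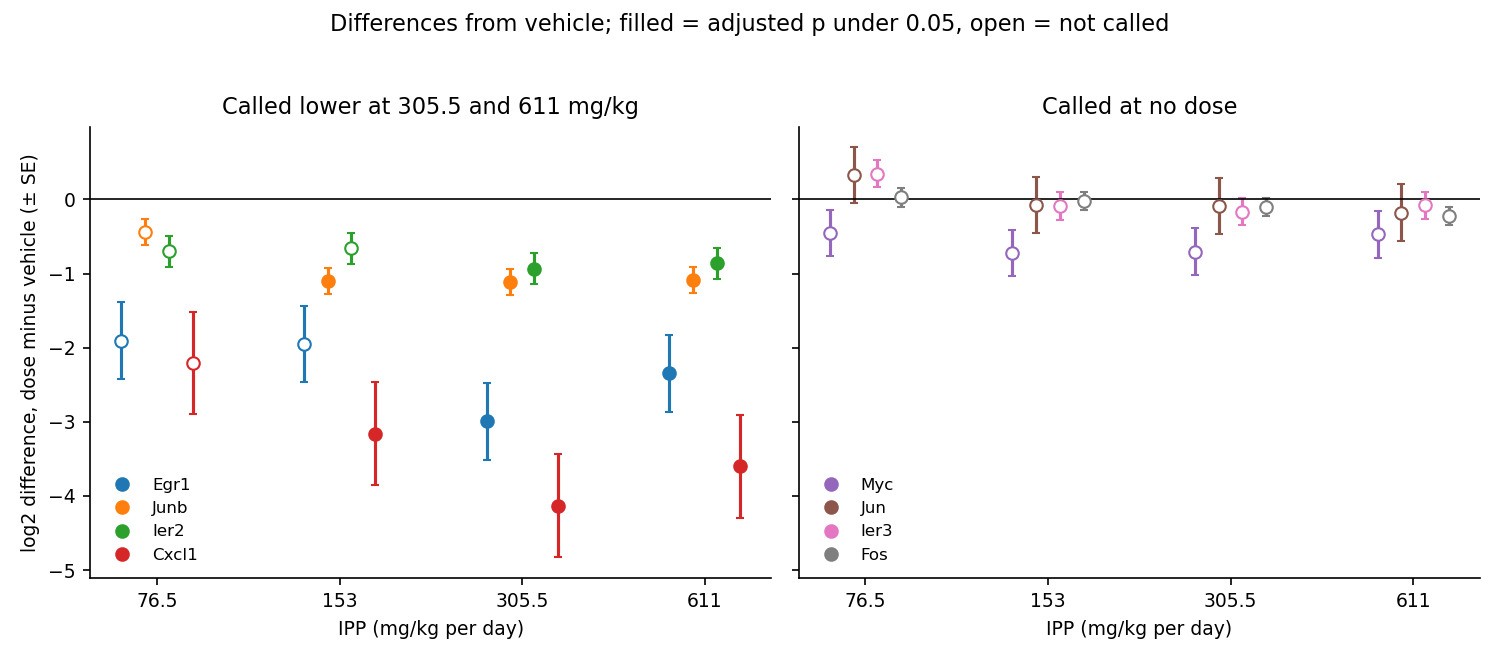
Log2 difference of each dose from vehicle (vertical axis, with SE bars from the limma model) against the daily IPP amount for the 8 genes, filled where the adjusted p was under 0.05 and open where it was not. Cxcl1 and Egr1 reach -4.13 and -2.99 at 305.5 mg/kg, Junb stays near -1.1 from 153 mg/kg on, and the 4 genes in the right panel are not called at any dose.

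Rank separation of the groups gave the same 4 genes at 3 doses. Egr1, Junb, Ier2 and Cxcl1 had all rats below every vehicle rat at 153, 305.5 and 611 mg/kg, where 4.42%, 7.34% and 7.13% of all genes did so. In the lowest dose group Ier2 alone among the 8 did so, against 3.16% of all genes. For these 4 genes the exact permutation test at 153, 305.5 and 611 mg/kg gave p = 0.0179, unadjusted, which is the smallest that 5 rats against 3 allow. This p largely follows from the separation itself and is not separate support. At 76.5 mg/kg the exact p was 0.0179 for Ier2, 0.0357 for Egr1, 0.0536 for Cxcl1 and 0.107 for Junb.

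Steps between neighbouring doses were asked next, and 0 of the 8 genes were called in any of the 3 steps, where limma called 0%, 0% and 0.0352% of all genes lower and 0%, 0% and 0.288% higher. From 76.5 to 153 mg/kg 2 of the genes had an unadjusted p under 0.05, Junb (-0.67 ± 0.20, limma, adjusted p = 0.381) and Ier3 (-0.44 ± 0.21, adjusted p = 0.623), and in the higher steps 0 had. From 153 to 305.5 mg/kg Egr1 differed by -1.04 ± 0.58 and Cxcl1 by -0.97 ± 0.78. From 305.5 to 611 mg/kg both were higher in value, Egr1 by 0.65 ± 0.58 and Cxcl1 by 0.53 ± 0.78. With 3 rats a dose these intervals are wide, from -0.57 to 1.87 for Egr1 and from -1.10 to 2.17 for Cxcl1 in the last step. No order of the 4 doses was therefore resolved for any of the 8 genes.

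A slope over the rank of the group (0 for vehicle to 4 for the highest dose) was called lower for the same 4 genes, against 2.78% of all genes (3.96% were called higher). Vehicle is part of this slope, so a drop from vehicle that is level across the doses also gives one. Per dose step Cxcl1 changed by -0.99 ± 0.18 (limma, adjusted p = 0.00216), Egr1 by -0.64 ± 0.14 (adjusted p = 0.00842), Junb by -0.30 ± 0.05 (adjusted p = 0.000895) and Ier2 by -0.22 ± 0.05 (adjusted p = 0.0140). The slopes of Myc, Jun, Ier3 and Fos were -0.14, -0.06, -0.05 and -0.05 (adjusted p from 0.264 to 0.710). With the dose in mg/kg in place of its rank, the slope calls of Egr1 and Ier2 were lost (limma, adjusted p = 0.0680 and 0.0728), as they were with the replicate number as a block (adjusted p = 0.0625 and 0.0875).

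Rats of 1 group differed more in these genes than in most. The within-group SD was 1.13 for Cxcl1, 0.842 for Egr1, 0.612 for Jun and 0.505 for Myc, at the 99.9th, 99.8th, 99.4th and 98.9th percentiles of all genes, whose median was 0.152. Ier2 (0.324), Ier3 (0.287) and Junb (0.266) lay at the 94.6th, 92.2nd and 89.6th percentiles, and Fos (0.181) at the 67.2nd. These ranks describe the spread between these rats and take no account of signal level.

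The 2 rats at 76.5 mg/kg that stayed in the vehicle range did so for different genes. Rat 1 had the highest Egr1 (10.28) and Ier2 (9.99) of the treated rats and the lowest Cxcl1 (7.49) of its dose. Rat 3 had the highest Cxcl1 (11.44) and Junb (9.13) of the treated rats and the lowest Egr1 (7.33) and Ier2 (8.94) of its dose.

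Whether the genes moved together among rats of the same group was asked with deviations from the group means over 17 rats, in 28 pairs of genes, with exact permutation of rats within groups (two-sided). After Benjamini-Hochberg adjustment over the 28 pairs, 0 pairs passed by Pearson's r or by Spearman's rho, and 2 had an unadjusted p under 0.05. Junb and Cxcl1 had r = 0.84 and rho = 0.80 (exact permutation p = 0.00466 and 0.00502, adjusted 0.0653 and 0.0702), and r was 0.80 without the 2 rats farthest from the median of Junb. Fos and Myc had r = -0.65 and rho = -0.68 (exact permutation p = 0.00216 for r, adjusted 0.0605 for r and 0.0690 for rho), and r = -0.73 without 2 rats. Of the 28 values of r 20 were positive, with a median of 0.12.

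Egr1 and Ier2 had r = 0.64 and rho = 0.57 (exact permutation p = 0.0628 for r, adjusted 0.427), which dropped to r = 0.31 without 2 rats. Egr1 and Cxcl1 had r = -0.13 and rho = 0.25 (p = 0.848 by exact permutation, adjusted 0.973). Without 76.5 mg/kg rats 1 and 3, r for Egr1 and Cxcl1 was 0.77, so the pooled value rests on those rats.

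**Figure D3:**
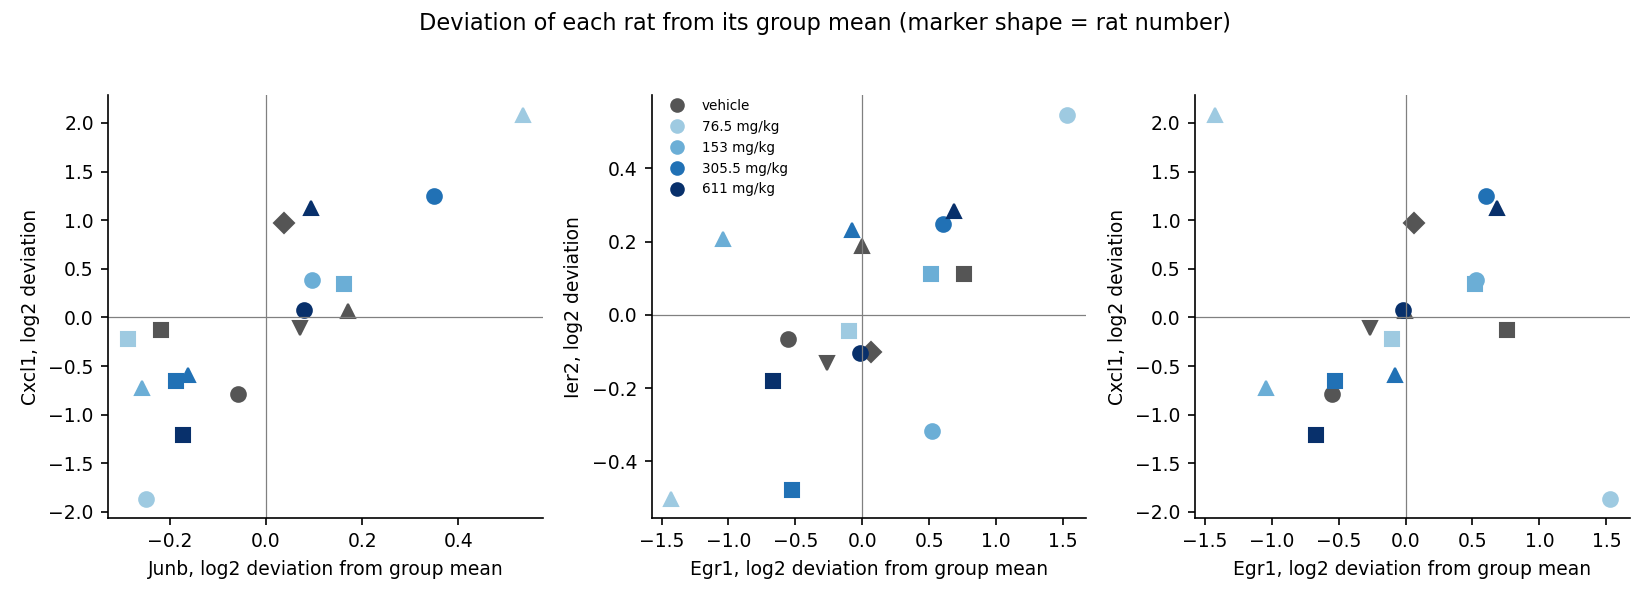
Deviation of each of the 17 rats from its group mean, in log2 units on both axes, for Junb against Cxcl1, Egr1 against Ier2 and Egr1 against Cxcl1, with colour for the dose and marker shape for the rat number. In the right panel 76.5 mg/kg rats 1 and 3 sit in opposite corners, and without them r for Egr1 and Cxcl1 goes from -0.13 to 0.77.

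The 6 other genes whose within-group deviations were most like the mean of the 8 genes were Cir1 (Pearson r = 0.93 over 17 rats), Gpx2 (0.86), Vps52 (0.82), Nr1i2 (0.81), Pfdn6 (0.81) and Scarb2 (0.81). These are the highest among all genes and are given as a description. None of the 6 was called in the mean of the 4 doses (limma, adjusted p from 0.0966 to 0.983).

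Lists of related genes were then read in the mean of the 4 doses, by their counts and medians only. Of 21 other genes listed as AP-1, EGR, NR4A, KLF or related transcription factors, 1 rose, 1 fell and 19 were not called, with a median of -0.05. Among those not called, Atf3 and Nr4a3 had an unadjusted p under 0.05 in limma. Atf3 had higher values (0.72 ± 0.21, limma, adjusted p = 0.0669) and Nr4a3 lower ones (-0.12, adjusted p = 0.273), both named after their values were seen. The called genes, Hes1 and Csrnp1, are not members of the AP-1, EGR, NR4A or KLF families. Hes1, a repressor downstream of Notch, fell by 0.46 ± 0.09 (limma, adjusted p = 0.0106) and was called at 76.5 mg/kg (-0.69, adjusted p = 0.0316). Csrnp1, a nuclear protein induced by axin and cytokines, rose by 0.56 ± 0.13 (adjusted p = 0.0184). All treated rats lay above every vehicle rat for Csrnp1, and the share of all genes with that pattern was not worked out.

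Among 23 of 24 listed other immediate early gene products, 0 rose and 2 fell, with a median of -0.12. Dusp6, the phosphatase that ERK induces and that dephosphorylates ERK, read 10.45 to 11.11 in vehicle (median 10.82), 9.98 to 10.20 at 76.5 mg/kg, 8.94 to 9.76 at 153 mg/kg, 8.61 to 9.74 at 305.5 mg/kg and 8.94 to 9.67 at 611 mg/kg. All 12 treated rats lay below every vehicle rat, as in 0.542% of all genes. Dusp6 fell by 1.26 ± 0.18 in the mean of the 4 doses (limma, adjusted p = 0.000484) and was called at 153, 305.5 and 611 mg/kg (-1.36, -1.47 and -1.45; adjusted p = 0.0113, 0.00332 and 0.00188). Ier5, a relative of Ier2, fell by 0.49 ± 0.09 (adjusted p = 0.00586), again with all treated rats below every vehicle rat (0.542% of all genes). At 305.5 mg/kg 4 of the list were called lower, among them Zfp36 (-0.85 ± 0.20, adjusted p = 0.0356), whose product speeds the decay of short-lived mRNAs, and Ccn2 (-1.26 ± 0.32, adjusted p = 0.0489), a matrix protein gene, both named after their values were seen. In the mean of the 4 doses Zfp36, Dusp5, Dusp2 and Ccn2 had lower values and Ppp1r15a higher ones (0.25) at an unadjusted p under 0.05 in limma. None of these was called in that mean, and Dusp5, Dusp2 and Ppp1r15a were also named after their values were seen.

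Upstream, 19 of 27 listed growth factor receptor, ERK pathway and feedback genes were measured, and 1 fell and 0 rose (median -0.03). It was Nab2, an EGR target whose product represses EGR proteins, at -0.57 ± 0.12 (limma, adjusted p = 0.0144). Every rat at 305.5 and 611 mg/kg lay below the vehicle range for Nab2, as in 7.34% and 7.13% of all genes. None of 9 measured JNK, p38 and CREB pathway genes was called (limma; median -0.02), and 2 of them, Map3k1 and Map2k3, had an unadjusted p under 0.05. Map3k1, a kinase upstream of JNK, was called higher at 611 mg/kg (0.65 ± 0.13, adjusted p = 0.00634).

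On the chemokine and NF-kB side, none of 17 other chemokines and chemokine receptors was called in the mean of the 4 doses (median 0.05), and 2 of 18 NF-kB subunits, inhibitors and targets fell while 0 rose (median 0.05). Among the chemokines 3 had an unadjusted p under 0.05 in limma, Cxcl11 and Cxcl9 with higher values (0.44 and 0.31) and Cxcl16 with lower ones (-0.20). Irf1, an interferon-responsive transcription factor gene, fell by 0.86 ± 0.13 (limma, adjusted p = 0.000769) and read 8.76 to 9.44 in vehicle, 8.38 to 8.86 at 76.5 mg/kg, 8.23 to 8.48 at 153 mg/kg, 7.66 to 8.23 at 305.5 mg/kg and 7.94 to 8.54 at 611 mg/kg. Its rats at the upper 3 doses all lay below the vehicle range, as in 4.42%, 7.34% and 7.13% of all genes dose by dose. Nfkbiz, which encodes a nuclear modulator of NF-kB, fell by 0.64 ± 0.16 (adjusted p = 0.0274). Cxcl9, a T cell chemokine induced by interferon, was called higher at 611 mg/kg (0.70 ± 0.17, adjusted p = 0.0179).

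Of 23 MYC partners and targets, 1 fell and 0 rose (median -0.04). It was Tfrc, the transferrin receptor for iron uptake (-0.70 ± 0.11, limma, adjusted p = 0.00102). All treated rats lay below every vehicle rat for Tfrc, as in 0.542% of all genes. Of 14 acute phase and IL-6/STAT3 genes, 1 rose, Orm1, an acute phase plasma protein (0.64 ± 0.14, limma, adjusted p = 0.0178), and 0 fell (median 0.05). All treated rats lay above every vehicle rat for Orm1, and the share of all genes with that pattern was not worked out. Most genes of these 8 lists were thus not called.

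**Figure D4:**
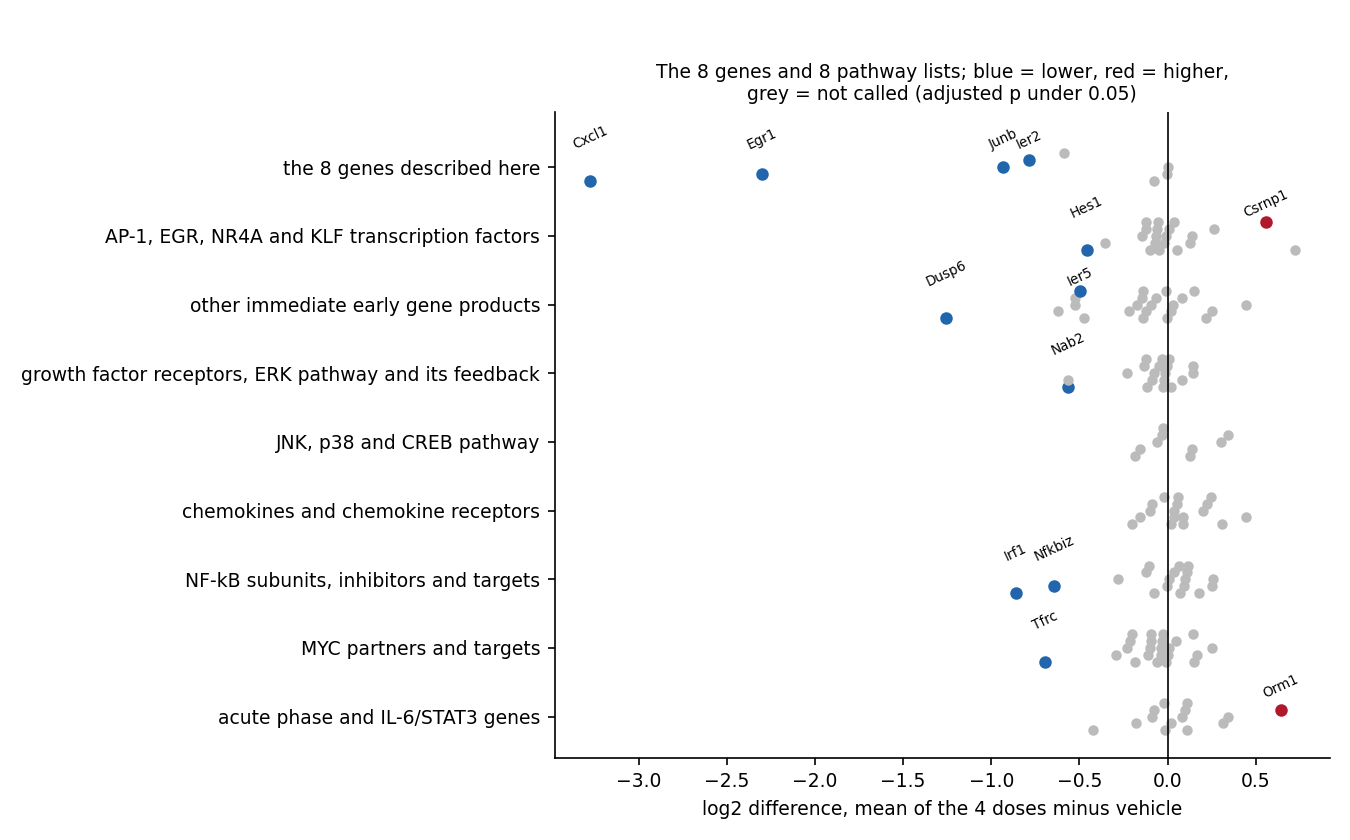
Log2 difference of the mean of the 4 doses from vehicle (horizontal axis) for each gene of the 8 described here and of 8 lists of related genes, blue where called lower, red where called higher and grey where not called, with called genes named. Cxcl1 and Egr1 lie at -3.28 and -2.30 and Dusp6 at -1.26, while most list genes lie near 0.

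Markers of the cell types in a piece of liver were measured beside these results, and their part in the results was not tested. Of 10 listed neutrophil markers 6 were measured, and they were dim. Their mean log2 signal was 5.52 to 5.93 in vehicle rats, 5.59 to 6.59 at 76.5 mg/kg, 5.69 to 5.76 at 153 mg/kg, 5.39 to 5.50 at 305.5 mg/kg and 5.43 to 5.68 at 611 mg/kg, with 0 of 6 called at any dose or in the mean of the 4 doses (limma). In that mean 1 of the 6, Camp, had an unadjusted p under 0.05, as did 1 of 8 macrophage markers, Csf1r. The 8 measured macrophage markers averaged 9.30 to 9.86 in vehicle, 9.58 to 9.71 at 76.5 mg/kg and 9.55 to 9.89 at 153 mg/kg. They averaged 9.17 to 9.40 at 305.5 mg/kg and 9.20 to 9.63 at 611 mg/kg, with 0 called at any dose. All 9 lymphocyte and 9 hepatocyte markers measured were also not called at any dose. In the mean of the 4 doses Cd8a of the lymphocyte list (-0.29) and Ass1 (-0.23) and Tat (0.75) of the hepatocyte list had an unadjusted p under 0.05 in limma. The slope of Ass1 was called lower (-0.11, limma, adjusted p = 0.0365).

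Some markers of other cells were called lower at the upper doses, where Egr1, Junb, Ier2 and Cxcl1 were also lower. The mean of 7 endothelial markers was 9.11 to 9.30 in vehicle, 9.09 to 9.29 at 76.5 mg/kg, 9.23 to 9.27 at 153 mg/kg, 8.64 to 8.95 at 305.5 mg/kg and 8.69 to 8.83 at 611 mg/kg. Of these 7, Pecam1 was called lower at 305.5 mg/kg (-0.37), against 1.47% of all genes. At 611 mg/kg Pecam1, Kdr, Stab2 and Lyve1 were called lower (-0.38 to -0.91), against 2.42% of all genes. At 153 mg/kg 0 of the 7 were called, and every rat lay above the vehicle range for Kdr (10.23 to 10.31 against 9.98 to 10.17). The mean of 12 stellate cell and fibroblast markers was 7.49 to 7.82 in vehicle, 7.53 to 7.68 at 76.5 mg/kg and 7.44 to 7.59 at 153 mg/kg. It was 7.17 to 7.48 at 305.5 mg/kg and 7.16 to 7.31 at 611 mg/kg. Pdgfrb was called lower at 305.5 and 611 mg/kg (-0.73 and -0.80) and Acta2 at 611 mg/kg (-0.51). In the mean of the 4 doses Acta2 and Pdgfrb fell (-0.38 and -0.63; limma, adjusted p = 0.0303 and 0.00296) and Rgs5, a pericyte marker of the same list, rose (0.38, adjusted p = 0.0292). At 153 mg/kg 0 of the 12 were called. All rats at that dose lay below every vehicle rat for Pdgfrb (6.65 to 6.96 against 7.33 to 7.70) and Acta2 (6.14 to 6.64 against 6.68 to 6.86), as in 4.42% of all genes. Neither of them was called there (adjusted p = 0.0633 and 0.226, limma). Rgs5 read 6.24 to 6.52 at that dose against 5.87 to 6.42 in vehicle. Red cell markers Hbb and Alas2 were called lower at 611 mg/kg (-1.63 and -1.34), 2 of 4 measured, and of 5 cholangiocyte markers Epcam was called higher (0.72) and Krt7 lower (-0.43) at that dose.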

How the data were processed

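Liver RNA of 17 rats was measured on 1 Affymetrix rat array each. The authors deposited log2 values per probe set, obtained by RMA, per the submitters' processing notes. RMA subtracts background, makes the arrays' distributions alike and summarises probes, so a shift of all genes on an array would not show. The program that ran it is not given in the sources. Groups came from the sample labels, and all 17 columns matched a label. Precision is limited by how many arrays there are.

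Of 31099 probe sets, 57 were controls, 20826 carried 1 gene symbol in the platform annotation, which can be old, 436 several and 9780 none. Of the 20826, 20758 matched RefSeq by gene ID, and 0 symbols changed. Probe sets with 1 symbol gave 14217 genes, each as its brightest probe set, a choice for 4525 genes. No signal filter was used.

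From these values limma 3.58.1 in R 4.3.3 fitted 5 group means over all arrays (eBayes with trend), with Benjamini-Hochberg adjustment over all genes in each of 9 comparisons and a call at adjusted p under 0.05. The script was tested on simulated data. Single genes were also tested by exact permutation of rats. Promoter sequences are RefSeq's, on GRCr8, and covered 4 of the 8 genes.

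All 8 members were described in full. Each list contributed its passing genes in the mean of the 4 doses if there were at most 5, and otherwise up to 4 by smallest p. The members and lists were chosen with earlier results of these data known. Replicate numbers shared by groups are not stated to pair rats, and the main fit did not pair them. Correlations of the deviations of same-numbered rats ran from -0.26 to 0.40, and 10 of 30 were over 0.1. Those of other-numbered rats ran from -0.35 to 0.34, and 20 of 84 were over 0.1. Such correlations cannot exclude a pairing. Alternatives varied the probe set rule, signal filter, scaling, array weights, variance model, block, threshold, groups fitted and rats. Added after seeing the data were a GAPDH 3′ to 5′ covariate and a fit without 3 arrays.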

Additional observations from a re-analysis of the deposited data

How the results depend on the processing

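The 4 calls in the mean of the 4 doses (Egr1, Junb, Ier2 and Cxcl1) were kept in every alternative run for them, with adjusted p up to 0.0220, 0.0138, 0.0488 and 0.0312. The counts at 305.5 mg/kg and between neighbouring doses stayed within 1.5 times the main count. No called value changed sign. Values of Fos, Ier3 and Jun called in neither fit changed sign in 8, 16 and 27 cases.

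At 76.5 mg/kg, 0 of 8 genes became 3 with array weights (Cxcl1, Junb, and Jun as higher), 1 without the 3 arrays that stood apart (which leaves 1 rat at that dose, assumed to vary like the other groups) and 2 by the unadjusted exact permutation test, and ran from 0 to 2 with single rats left out. At 153 mg/kg, 2 became 1 with probe sets averaged per gene, every probe set tested, robust eBayes, the replicate block or an adjusted p under 0.01, 4 when only the 2 groups were fitted or by the unadjusted exact permutation test, and ran from 1 to 3 with single rats left out. At 611 mg/kg, 4 became 2 at an adjusted p under 0.01 and ran from 2 to 4 with single rats left out, the lowest without 611 mg/kg rat 2. For the slope, 4 became 2 with the replicate block and 2 with the dose in mg/kg (Egr1 and Ier2 lost in both). Pairs of genes that passed went from 0 to 1 with median centring, and ran from 0 to 1 with single rats left out (1 without 76.5 mg/kg rat 1 or rat 2). The replicate block also ended the calls of Ier2 at 305.5 mg/kg (adjusted p = 0.0703) and 611 mg/kg (adjusted p = 0.0656). The causes were not tested.

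Over all genes, the number called moved by more than 1.5 times, from 38 to between 4 and 696 at 76.5 mg/kg, from 106 to 29 and 398 at 153 mg/kg, from 316 to 120 and 1114 at 305.5 mg/kg, from 1060 to 330 and 1884 at 611 mg/kg, from 570 to 207 and 1667 in the mean of the 4 doses and from 958 to 288 and 1649 for the slope. Between neighbouring doses 0, 0 and 46 became up to 148, 210 and 333. The highest counts came from array weights.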
